A study of Mus musculus with 12 samples.

Results

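The diet comparison under the knockout label sets 3 libraries of cardiomyocyte RNA from Apoe knockout mice on a high fat diet, ApoeKO_HFD, against 3 libraries from Apoe knockout mice on chow, ApoeKO_CD. The 6 libraries were chosen by their sample titles out of 12 in the series. Of 55335 genes in the count files, 16932 had enough counts to be tested. All mice were male and 7 to 8 weeks old at the start. Knockout mice were of the strain B6.129P2-Apoe tm1Unc/J, and the wild-type mice of the series, used here only to set values beside, were C57BL/6J. ApoeKO_HFD mice ate a Western-type diet high in fat, with 0.21% cholesterol, and ApoeKO_CD mice ate standard chow, both for 7 weeks. The groups WT_HFD and WT_CD have the same diets and the same time. Whether each replicate is its own animal is not given in the labels, and p-values then measure only the spread between libraries, which may be technical. The series concerns hearts that fail under metabolic stress while their ejection fraction is kept, and this comparison asks what the diet changes when both groups carry the knockout label.

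Apolipoprotein E is a surface protein of lipoproteins that lets the liver take up their remnants, and mice without it accumulate cholesterol in the blood, more so on a Western diet. Cells sense cholesterol through the liver X receptors (LXR), which switch on genes of cholesterol export and fatty acid synthesis when oxysterols rise, and through SREBP-2, which does the reverse for cholesterol synthesis. The heart burns mainly fatty acids, and its receptor PPAR-alpha raises the enzymes of their oxidation when supply is high. A congenic knockout strain keeps DNA of the donor strain beside the targeted gene.

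The 6 libraries held 22130323 to 42360232 counts. Mitochondrially encoded RNA made up 51.5% to 71.3% of these, which left 9340449 to 16265128 counts on nuclear genes. The summed level of 8 cardiomyocyte markers was 38550 to 45080 CPM (counts relative to the TMM-scaled library total, the unit of every level below) in ApoeKO_HFD and 43740 to 45830 CPM in ApoeKO_CD, and all 8 markers were present in each library. One library of the series, WT_HFD replicate 3, had 65.6% of its counts on the non-coding strand at overlapping gene pairs, against 0.524% to 0.757% in the 11 others. It held only 1347110 counts. Its count column had the header S07, the same as that of ApoeKO_CD replicate 1, which is among the 6 libraries compared here. What the shared header means was not tested. WT_HFD replicate 3 was left out of every fit except the alternative that used all 12 libraries.

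Apoe, the targeted gene (chromosome 7, 19696109 to 19699188, minus strand), does not separate the groups in the way the labels would have it. It had 81, 81 and 126 counts in the libraries labelled ApoeKO_HFD, against 898, 602 and 274 counts in those labelled ApoeKO_CD. In the wild-type libraries it had 691 and 379 counts in WT_HFD, against 92, 54 and 96 counts in WT_CD. Low counts thus stood in ApoeKO_HFD and WT_CD, high counts in ApoeKO_CD and WT_HFD, and the ranges of the low and high groups did not overlap. As levels, Apoe averaged 2.71 ± 0.668 CPM in ApoeKO_HFD and 18.7 ± 10.2 CPM in ApoeKO_CD (SD, n = 3 each). The log2 fold change of Apoe was −2.79 (SE 0.52), which missed the threshold by edgeR's quasi-likelihood test (adjusted p = 0.363). Without ApoeKO_CD replicate 3, the lowest of its group, it was −3.20 and passed (adjusted p = 0.000199, the same test). The counts cover the whole gene, so they do not tell intact from interrupted transcripts. If the chow labels were exchanged, the comparison would set knockout mice on the high fat diet against wild-type mice on chow, and diet and genotype could not be told apart. Groups are called by their labels throughout.

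At a Benjamini-Hochberg adjusted p under 0.05, 12 of the 16932 tested genes were called, which is 0.0709%. Of these, 9 were higher in ApoeKO_HFD (0.0532%) and 3 were lower (0.0177%), and for each of the 12 the 3 libraries of 1 group lay wholly above those of the other. At an unadjusted p under 0.05 there were 259 genes, 1.53% of those tested, of which 127 were higher (0.75%) and 132 lower (0.78%). The 2 groups did not overlap at 1529 genes (9.03%), of which 853 were higher (5.04%) and 676 lower (3.99%) in ApoeKO_HFD. The median log2 fold change over all tested genes was 0.01. Of the 12 called genes, 9 lay on chromosome 7, the chromosome of Apoe, which held 1325 of the 16932 tested genes. The other 3 were among 15607 tested genes of other chromosomes.

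Among the called genes near Apoe, Igsf23 and 5 others of chromosome 7 were higher in ApoeKO_HFD. Igsf23, a membrane protein gene of the immunoglobulin superfamily (chromosome 7, 19937305 to 19950756), had 5.07, 5.60 and 6.14 CPM in ApoeKO_HFD, against 0.619, 0.398 and 0.506 CPM in ApoeKO_CD. That is a 10.8-fold difference (log2 fold change 3.43, SE 0.30, adjusted p = 1.52e-05 by edgeR's quasi-likelihood test with Benjamini-Hochberg adjustment, as for every adjusted p that follows). Pnmal2, of the PNMA family, had 6.41, 6.64 and 5.71 CPM in ApoeKO_HFD, against 1.55, 1.23 and 2.12 CPM in ApoeKO_CD (log2 fold change 1.91, SE 0.24, adjusted p = 0.00113). All 3 high fat libraries of both genes stood several-fold above the chow libraries. Blvrb, a biliverdin reductase of heme breakdown, had 4.999, 4.33 and 3.36 CPM in ApoeKO_HFD, against 0.900, 1.15 and 1.09 CPM in ApoeKO_CD (log2 fold change 2.02, SE 0.27, adjusted p = 0.00199). Trappc6a, a subunit of a vesicle tethering complex, had 4.14, 3.40 and 2.73 CPM in ApoeKO_HFD, against 0.872, 0.954 and 1.49 CPM in ApoeKO_CD (log2 fold change 1.61, SE 0.26, adjusted p = 0.0144). These levels were low, and a library's spread was wider in Trappc6a than in Igsf23. Hif3a, a member of the hypoxia-inducible factor family, had 2.92, 1.79 and 1.95 CPM in ApoeKO_HFD, against 0.394, 0.517 and 0.278 CPM in ApoeKO_CD (log2 fold change 2.51, SE 0.43, adjusted p = 0.0298). Zfp30, a KRAB zinc finger gene that starts 10.1 Mb from Apoe, had 11.002, 8.73 and 8.89 CPM in ApoeKO_HFD, against 3.26, 3.26 and 4.07 CPM in ApoeKO_CD (log2 fold change 1.43, SE 0.18, adjusted p = 0.000983).

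The 3 called genes that were lower in ApoeKO_HFD were on chromosome 7 as well. Lgals4, a galectin best known from gut epithelium, had 6.70, 6.23 and 7.01 CPM in ApoeKO_HFD, against 22.0, 28.6 and 18.7 CPM in ApoeKO_CD (log2 fold change −1.79, SE 0.21, adjusted p = 0.000983). Ercc2, a helicase of transcription factor TFIIH and of nucleotide excision repair, had 2.18, 2.39 and 2.96 CPM in ApoeKO_HFD, against 4.95, 5.33 and 5.34 CPM in ApoeKO_CD (log2 fold change −1.05, SE 0.19, adjusted p = 0.0382). Bcam, a laminin receptor gene that starts 0.06 Mb from Apoe, had 51.1, 51.3 and 46.9 CPM in ApoeKO_HFD, against 74.7, 86.0 and 80.9 CPM in ApoeKO_CD (log2 fold change −0.69, SE 0.12, adjusted p = 0.0382). Bcam was the most abundant of the 12 and had the smallest fold difference. Igsf23, Pnmal2, Blvrb, Zfp30 and Lgals4 kept their calls whichever of the 6 libraries was left out, whereas Trappc6a kept it in 2 of these 6 fits and Hif3a, Ercc2 and Bcam in 0.

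**Figure D1:**
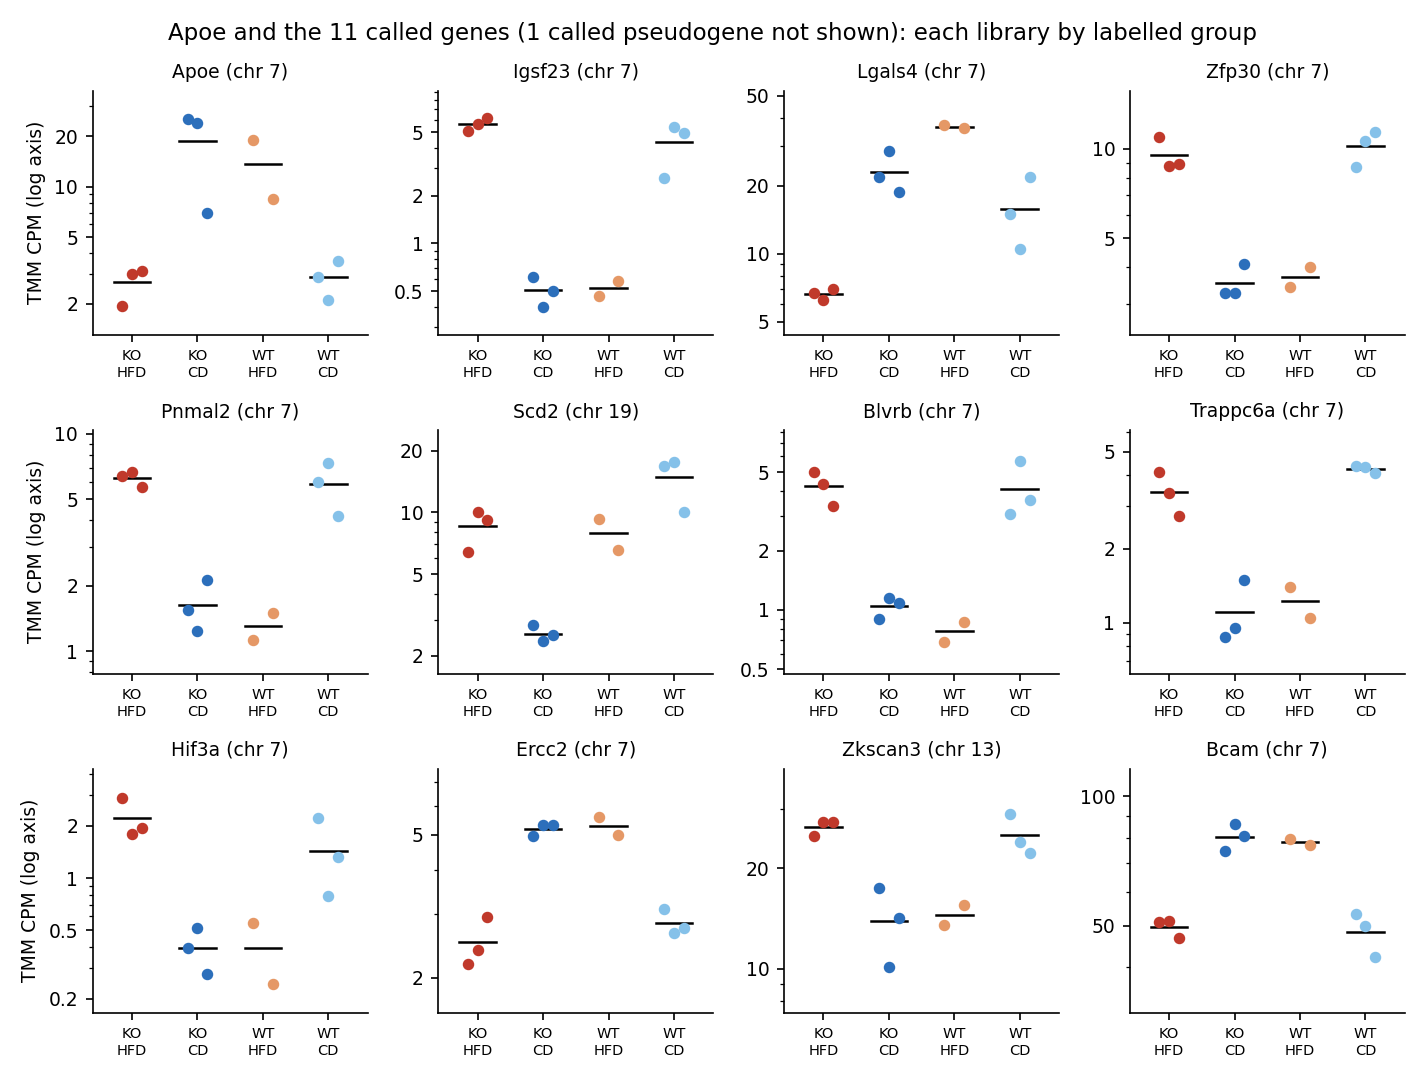
Level of Apoe and of 11 called genes in each library, in TMM-scaled CPM on a log axis, by labelled group (KO HFD is ApoeKO_HFD, KO CD is ApoeKO_CD; points are libraries, bars are group means). In every panel the 3 ApoeKO_HFD libraries lie apart from the 3 ApoeKO_CD libraries, and WT_HFD and WT_CD lie apart the opposite way.

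The region around Apoe held more of the difference than the rest of the genome. Within 10 Mb of the start of Apoe, 244 genes were tested, Apoe among them, of which 8 were called, 5 higher and 3 lower in ApoeKO_HFD. The 2 groups did not overlap at 48 of the 244 (19.7%), against 1370 of 15607 genes on other chromosomes (8.78%). An unadjusted p under 0.05 was reached by 30 of the 244 (12.3%), against 1.29% on other chromosomes. Within 5 Mb, 108 genes were tested, 6 were called, and the groups did not overlap at 30.6%. Within 20 Mb it was 414 genes, 9 called and 17.9% without overlap. Genes near Apoe went in both directions, and their median log2 fold change was 0.03.

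**Figure D2:**
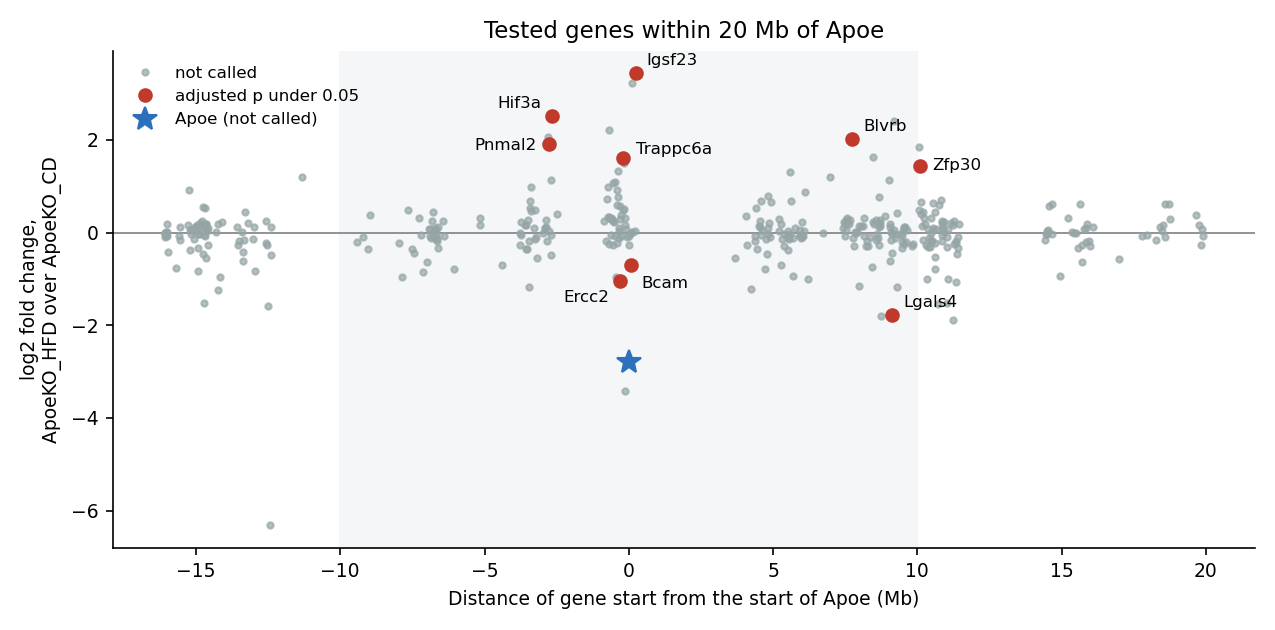
Log2 fold change of ApoeKO_HFD over ApoeKO_CD for each tested gene within 20 Mb of Apoe, against the distance of its start from that of Apoe in Mb; the shaded band is the 10 Mb window. Called genes (red) range from 3.43 (Igsf23) to −1.79 (Lgals4), and Apoe itself (star) is at −2.79.

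Outside chromosome 7, 3 genes were called, all higher in ApoeKO_HFD. Scd2, on chromosome 19 (chromosome 19, 44293674 to 44306864), encodes a stearoyl-CoA desaturase, which makes monounsaturated fatty acids. It had 6.41, 10.1 and 9.19 CPM in ApoeKO_HFD, against 2.81, 2.35 and 2.53 CPM in ApoeKO_CD, a 3.32-fold difference (log2 fold change 1.73, SE 0.23, adjusted p = 0.00199). Its call held whichever of the 6 libraries was left out. Zkscan3, a zinc finger gene on chromosome 13 whose human counterpart represses autophagy genes, had 25.0, 27.4 and 27.4 CPM in ApoeKO_HFD, against 17.5, 10.1 and 14.1 CPM in ApoeKO_CD (log2 fold change 0.93, SE 0.17, adjusted p = 0.0382). That call held in 1 of the 6 such fits, with values of 0.75 to 1.13. The third was a pseudogene on chromosome 17, Tmem181b-ps, named here after its values were seen, whose fold change was 1.13 on the log2 scale (SE 0.17, adjusted p = 0.00809). Its reads could belong in part to related copies, and its call held in 1 of the 6 fits. With the genes of chromosome 7 left out before adjustment, an alternative chosen after seeing the data, Scd2 and Tmem181b-ps were the 2 genes called.

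The next genes by p-value, with a mean level of at least 1 on the log2 CPM scale, did not pass. Of the 9 reported, 4 were on chromosome 7, which held 1325 of the 16932 tested genes. Vasp, an actin regulator, had 2.89, 2.99 and 3.28 CPM in ApoeKO_HFD, against 6.47, 5.01 and 6.30 CPM in ApoeKO_CD (log2 fold change −0.96, SE 0.19, adjusted p = 0.0954). Its groups did not overlap, and the same was true of all 9, which their small p-values favour. The others of chromosome 7 were Ccdc8 (log2 fold change 1.14), Zfp790 (0.67) and Clcn4, a chloride-proton exchanger gene (−0.49). Elsewhere lay Abca1 (0.62), Rfesd (1.01) and the mucin gene Muc4 (0.86), with higher values in ApoeKO_HFD, and the Z-disc gene Pdlim3 (−0.86) and the T-type calcium channel gene Cacna1h (−1.06), with lower values. Cacna1h had 3.61, 4.07 and 2.75 CPM in ApoeKO_HFD, against 7.40, 8.51 and 5.87 CPM in ApoeKO_CD. Adjusted p for these 8 ranged from 0.218 to 1. DESeq2, fitted to the same 11 libraries, called Apoe, Vasp, Ccdc8 and Rfesd, among others, in addition to all 12 genes.

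Under the wild-type label, where no library is shared with the 6, the called genes had the opposite sign. For each of the 12 the WT_HFD libraries lay wholly on the other side of the WT_CD libraries, where the 2 groups lay apart, in either direction, at 24.7% of all genes. Of the 12, 7 were also called there, in a comparison that called 35 genes (0.207%). The log2 fold change of Igsf23 for WT_HFD over WT_CD was −3.03 (SE 0.34, adjusted p = 0.000915), that of Blvrb −2.39 (adjusted p = 0.00281) and that of Lgals4 1.21 (adjusted p = 0.0299). Scd2 had −0.91 and was not called there (adjusted p = 0.168). At 8 of the 9 called genes of chromosome 7 the ApoeKO_HFD libraries overlapped in level with the WT_CD libraries, as at Igsf23, which had 5.60 ± 0.533 CPM in ApoeKO_HFD (SD, n = 3) beside 2.59, 5.42 and 4.96 CPM in WT_CD. The other was Lgals4, with 6.70, 6.23 and 7.01 CPM in ApoeKO_HFD beside 15.1, 10.5 and 21.9 CPM in WT_CD. How many of all tested genes overlap between these 2 groups was not counted, so the 8 are a description only. Scd2 had 8.56 ± 1.91 CPM in ApoeKO_HFD (SD, n = 3), beside 16.8, 17.6 and 10.04 CPM in WT_CD. Of the 9 next genes, 8 had the opposite sign under the wild-type label, Cacna1h being the other one with −0.24. Of the 259 genes with an unadjusted p under 0.05, 170 (65.6%) had the opposite sign there, against 8906 of all 16932 (52.6%).

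The difference between the 2 diet comparisons, the interaction of diet with genotype label, was called at 37 genes (0.219%), 29 higher and 8 lower. Of the 37, 16 were on chromosome 7, which held 1325 of the 16932 tested genes. All 12 genes called between ApoeKO_HFD and ApoeKO_CD were among the 37, which is a description, since the interaction contains that comparison. Apoe was called in it with a log2 value of −5.03 (adjusted p = 0.0427). At an unadjusted p under 0.05 the interaction had 1389 genes (8.2%).

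**Figure D3:**
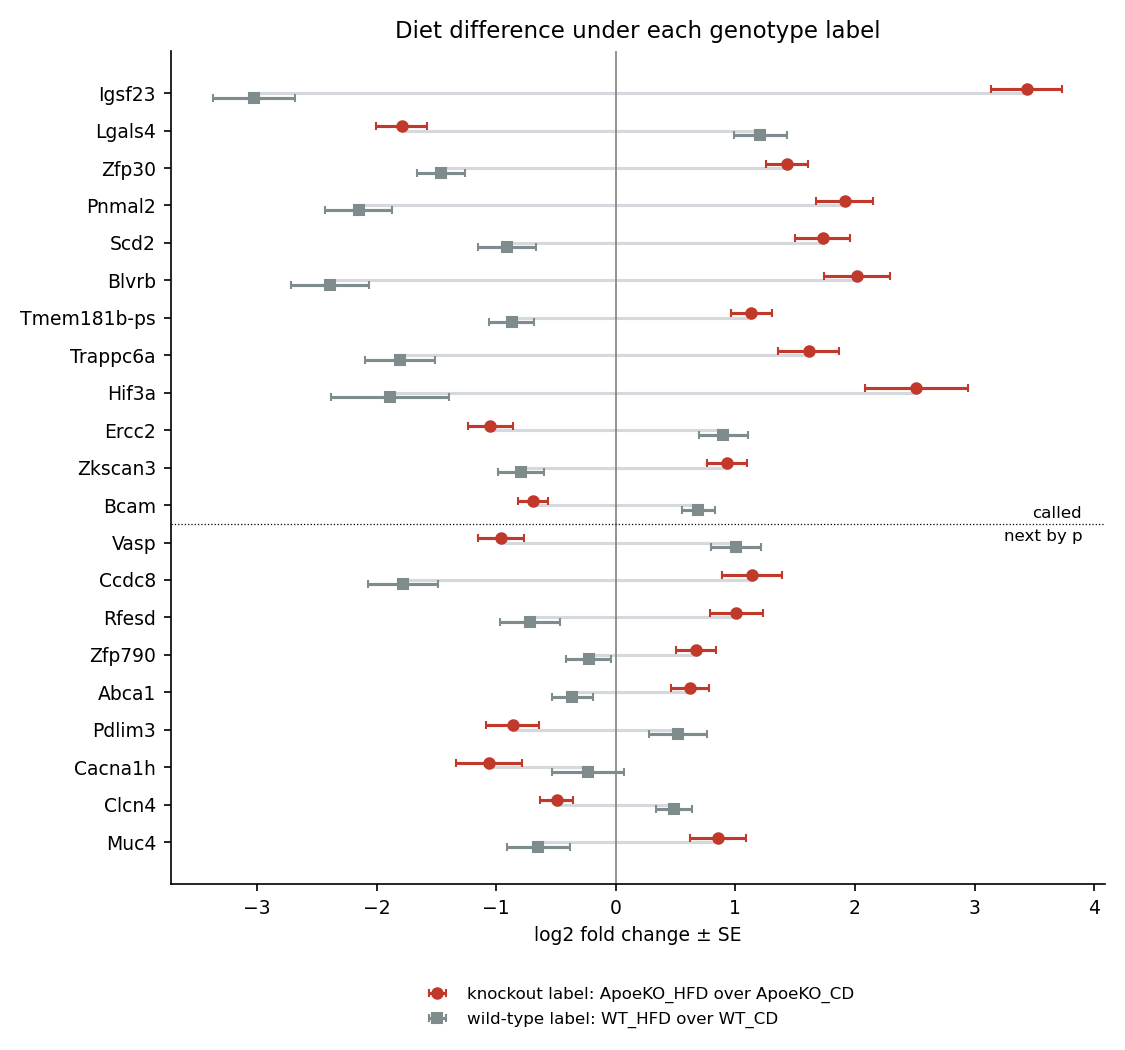
Log2 fold changes (± SE) of the 12 called genes, above the dotted line, and the 9 next genes, below it: circles for ApoeKO_HFD over ApoeKO_CD, squares for WT_HFD over WT_CD. For 20 of the 21 genes the circle and the square lie on opposite sides of 0, Cacna1h being the exception.

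Genes of cholesterol export and of fatty acid synthesis that answer to LXR had mostly higher values in ApoeKO_HFD. Of 16 tested LXR targets, out of 19 listed, 13 lay above 0, with a median log2 fold change of 0.13 against 0.01 over all genes, and Scd2 was the 1 called. Another 5 had an unadjusted p under 0.05, all with higher values in ApoeKO_HFD, which 0.75% of all genes had. Abca1, the transporter that loads cholesterol onto apolipoprotein A-I, had 41.5, 40.8 and 44.0 CPM in ApoeKO_HFD, against 24.8, 34.9 and 22.5 CPM in ApoeKO_CD (log2 fold change 0.62, SE 0.16, adjusted p = 0.662). Fasn, the fatty acid synthase, had 17.6, 16.3 and 16.2 CPM in ApoeKO_HFD, against 12.04, 14.4 and 12.7 CPM in ApoeKO_CD (log2 fold change 0.36, SE 0.12, adjusted p = 1). Neither gene's groups overlapped, and neither passed. Scd1, the paralogue of Scd2, had 1.00, 0.560 and 1.78 CPM in ApoeKO_HFD, against 0.647, 0.557 and 0.506 CPM in ApoeKO_CD, groups that overlap. Nr1h3, the gene of LXR-alpha itself, Mylip, a ligase that degrades the LDL receptor, and Abcg1, a cholesterol exporter, were named after their values were seen. Nr1h3 had 5.52, 5.45 and 5.56 CPM in ApoeKO_HFD, against 4.25, 4.10 and 3.69 CPM in ApoeKO_CD, Mylip had a log2 fold change of 0.44 (SE 0.19) and Abcg1 one of 0.85 (SE 0.44), each with an adjusted p of 1. Below 0 lay Pltp (log2 fold change −0.20), Npc1 (−0.15) and Lpl (−0.02), also named after their values were seen, as was Srebf1. Srebf1 had a log2 fold change of 0.16, with overlap between its groups. Under the wild-type label the median of the list was −0.26. Under the knockout label the median of the list was 0.15 to 0.36 with 1 library of the 2 groups left out, against 0.13 with none left out.

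Of the LXR list, 12 members have a start-site window in the RefSeq table (build GRCm38.p6, 250 bases before the start to 50 after it). The windows printed are those of Abca1 and Fasn, picked as the 2 with the smallest p-values among them. Capitals mark the longest run of letters common to both, which was looked for after the values were known and these 2 were picked. The Abca1 window is chr4:53159846-53160145 and the Fasn window chr11:120824498-120824797, both on the minus strand and written 5′ to 3′.
Abca1: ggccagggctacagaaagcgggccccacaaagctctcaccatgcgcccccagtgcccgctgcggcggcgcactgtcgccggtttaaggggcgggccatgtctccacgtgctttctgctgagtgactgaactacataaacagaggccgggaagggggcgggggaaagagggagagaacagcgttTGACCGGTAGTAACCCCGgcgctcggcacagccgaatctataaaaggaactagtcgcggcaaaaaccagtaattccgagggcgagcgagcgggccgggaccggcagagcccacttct
Fasn: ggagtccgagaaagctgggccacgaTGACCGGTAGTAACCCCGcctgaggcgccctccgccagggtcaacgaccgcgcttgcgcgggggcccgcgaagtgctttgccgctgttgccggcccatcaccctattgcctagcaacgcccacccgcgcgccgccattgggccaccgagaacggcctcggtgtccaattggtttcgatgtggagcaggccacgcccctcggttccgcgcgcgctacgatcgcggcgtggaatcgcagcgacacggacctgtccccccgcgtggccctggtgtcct
The shared run, TGACCGGTAGTAACCCCG, is 18 letters long, and lies 67 to 50 bases before the start of Abca1 and 225 to 208 bases before that of Fasn. Searched on both strands, it is in 2 of 32851 windows of the same length (0.00609%), those of these 2 genes. The run was taken from these 2 windows, so both hits were fixed beforehand. How often 2 windows share a run of this length was not counted. A match of letters is a description and does not show binding.

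The other lists of lipid handling held no called gene apart from Scd2. Of 15 tested desaturases and elongases 11 lay above 0, with a median log2 fold change of 0.15, and Fads1, the delta-5 desaturase, had 3.13, 3.96 and 3.28 CPM in ApoeKO_HFD, against 2.76, 2.31 and 2.81 CPM in ApoeKO_CD (adjusted p = 1). Fatty acid synthesis genes had 9 of 16 above 0 (median 0.04). Genes of cholesterol synthesis and uptake had 10 of 24 above 0 (median −0.07), and Srebf2, the gene of SREBP-2, had 7.63, 8.92 and 8.69 CPM in ApoeKO_HFD, against 7.31, 7.48 and 6.80 CPM in ApoeKO_CD, close values that do not overlap. Targets of PPAR-alpha had 9 of 23 above 0 (median −0.06). Ucp2, a mitochondrial carrier gene, had 4.02, 4.25 and 4.71 CPM in ApoeKO_HFD, against 7.12, 6.80 and 5.23 CPM in ApoeKO_CD (log2 fold change −0.56, adjusted p = 1). Ppara, the gene of the receptor, had 27.1 ± 0.419 CPM in ApoeKO_HFD and 23.9 ± 2.94 CPM in ApoeKO_CD (SD, n = 3 each), a difference about the size of the larger SD.

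The enzymes that burn the fuel were nearly level between the diets. Fatty acid oxidation enzymes had a median log2 fold change of −0.05, with 7 of 24 above 0, and none of the 24 had groups that did not overlap or an unadjusted p under 0.05. Glucose uptake, glycolysis and pyruvate entry had 19 of 26 above 0 (median 0.02), ketone and branched-chain amino acid breakdown 7 of 16 (median −0.05), and nuclear genes of oxidative phosphorylation 49 of 83 (median 0.02). In these 3 lists no groups lay apart either. The ketone-oxidizing enzyme gene Bdh1 had 82.4, 59.9 and 67.1 CPM in ApoeKO_HFD, against 42.1, 35.4 and 74.6 CPM in ApoeKO_CD, with 1 chow library inside the high fat range. The 13 protein genes of the mitochondrial genome had a median of 0.15, and their summed level varied between libraries of 1 group by more than between the groups, at 98260 to 166300 CPM in ApoeKO_HFD and 87540 to 158500 CPM in ApoeKO_CD. Lipid droplet coats and lipases had 13 of 18 above 0 (median 0.03). Among these, Mgll, the monoacylglycerol lipase, had 13.1, 13.6 and 15.8 CPM in ApoeKO_HFD, against 9.62, 12.3 and 10.9 CPM in ApoeKO_CD (log2 fold change 0.38, adjusted p = 1). Insulin signalling genes had 8 of 18 above 0 (median −0.01), with Akt1, a kinase of that pathway, at 62.0, 75.6 and 70.5 CPM in ApoeKO_HFD, against 60.0, 48.9 and 58.1 CPM in ApoeKO_CD. The insulin receptor gene Insr had 147, 141 and 143 CPM in ApoeKO_HFD, against 156, 162 and 162 CPM in ApoeKO_CD, and the substrate gene Irs1 had a log2 fold change of 0.22. No gene of these lists was called.

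**Figure D4:**
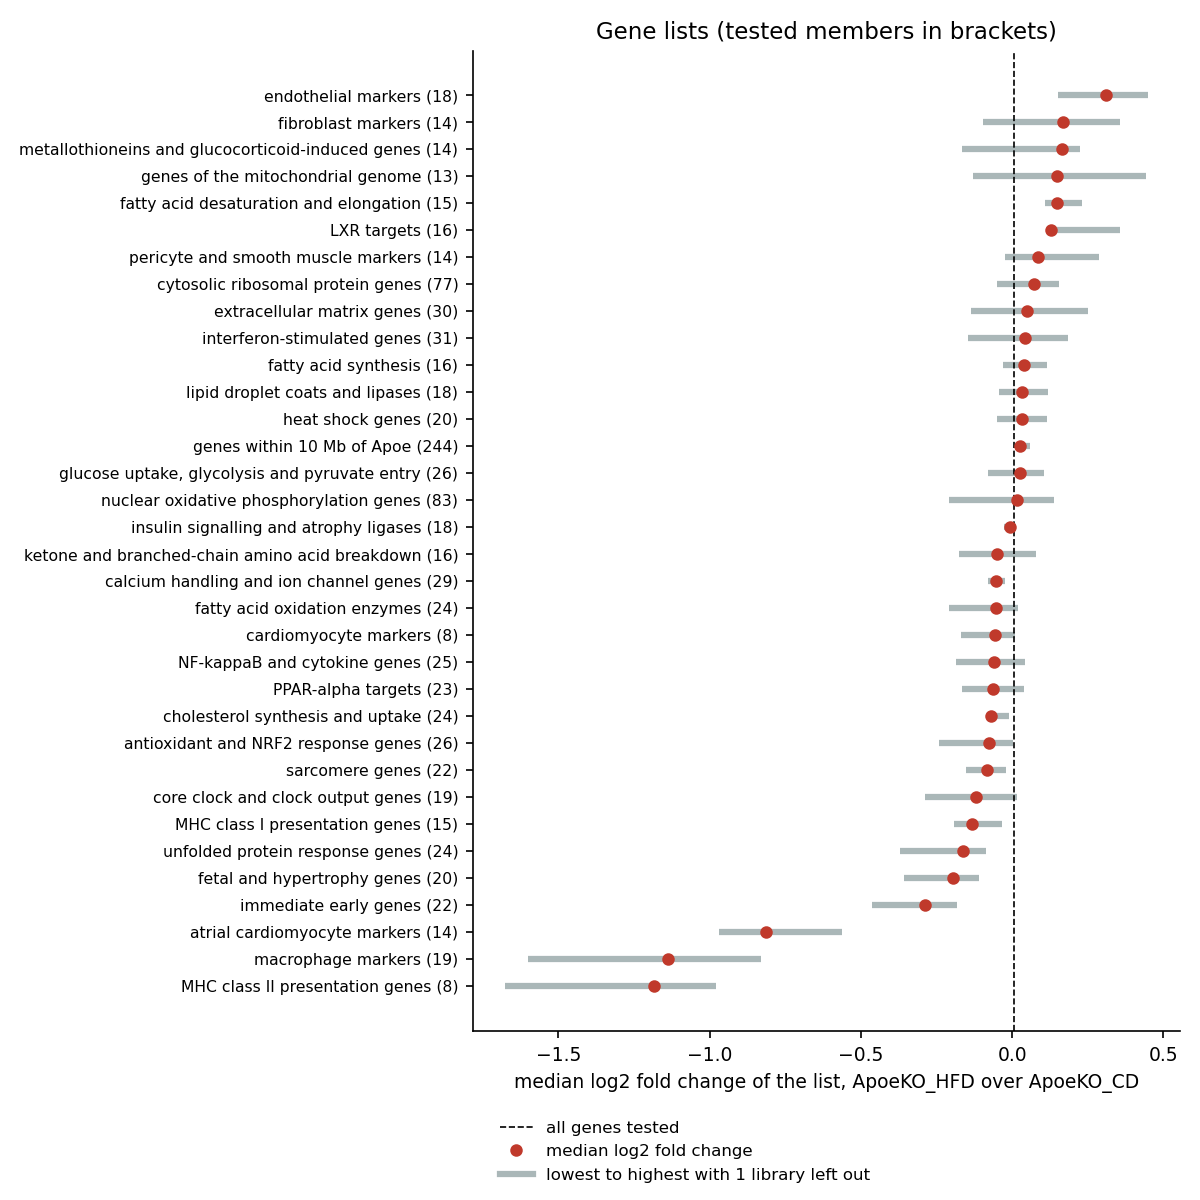
Median log2 fold change of ApoeKO_HFD over ApoeKO_CD for each list with at least 8 tested members (points), with the range over the 6 fits that leave out 1 library (bars); the dashed line is the median of all genes. Metabolic lists lie near 0, while MHC class II, macrophage and atrial lists lie farthest below it, at −1.18, −1.14 and −0.81.

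Genes of hypertrophy and growth had mostly lower values in ApoeKO_HFD, with none called. Of 20 tested fetal and hypertrophy genes 17 lay below 0, at a median log2 fold change of −0.20. Myh7, the slow myosin heavy chain that rises in strained mouse ventricle, had 145, 96.7 and 71.7 CPM in ApoeKO_HFD, against 260, 176 and 334 CPM in ApoeKO_CD (log2 fold change −1.30, SE 0.42, adjusted p = 1). Ankrd1, a titin-bound stretch-response gene, had 319, 163 and 181 CPM in ApoeKO_HFD, against 343, 341 and 359 CPM in ApoeKO_CD (log2 fold change −0.65, SE 0.24). Neither gene's groups overlapped, though ApoeKO_HFD replicate 1 came near the chow libraries in both. Ccn2, a matricellular growth factor gene driven by YAP, had 25.7, 18.1 and 19.7 CPM in ApoeKO_HFD, against 45.3, 23.0 and 36.6 CPM in ApoeKO_CD, and its relative Ccn1 116, 74.2 and 81.6 CPM in ApoeKO_HFD, against 141, 83.9 and 138 CPM in ApoeKO_CD. Unlike the called genes, these 4, the members with the smallest p, had the same sign under the wild-type label. Their log2 fold changes there were −0.66 for Ankrd1, −0.61 for Ccn2, −0.50 for Ccn1 and −0.25 for Myh7, none called. The whole list did not repeat this, with a median of 0.003 under the wild-type label. Under the knockout label the median of the list was −0.11 without ApoeKO_CD replicate 3 and −0.36 without ApoeKO_CD replicate 2.

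The contractile apparatus itself differed little. Sarcomere genes had 18 of 22 below 0, at a median log2 fold change of −0.08. Their summed level was 93100 to 100100 CPM in ApoeKO_HFD and 100100 to 105700 CPM in ApoeKO_CD. Calcium handling and ion channel genes had 17 of 29 below 0 (median −0.05). Kcnip2, the accessory subunit of the transient outward potassium channel, had 53.4, 49.1 and 46.6 CPM in ApoeKO_HFD, against 37.8, 40.5 and 44.6 CPM in ApoeKO_CD (log2 fold change 0.28, SE 0.13, adjusted p = 1), while Kcnd2, a pore subunit of that channel, had 18.97, 18.5 and 18.1 CPM in ApoeKO_HFD, against 22.1, 23.7 and 21.1 CPM in ApoeKO_CD (log2 fold change −0.27, SE 0.16). The 2 subunits' groups lay apart in opposite directions, and neither passed. The pacemaker channel gene Hcn2 had a log2 fold change of 0.36.

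Stress and transcription programmes had list medians on both sides of the median of all genes. Immediate early genes had 20 of 22 below 0 (median −0.29, and −0.46 to −0.18 with 1 library left out). Ier5 had 16.96, 10.9 and 11.8 CPM in ApoeKO_HFD, against 30.2, 12.3 and 22.9 CPM in ApoeKO_CD, with overlap, and Fosb, an AP-1 subunit gene within 1 Mb of Apoe, went the other way at 9.85, 13.6 and 16.2 CPM in ApoeKO_HFD, against 7.26, 11.97 and 7.16 CPM in ApoeKO_CD. Unfolded protein response genes had 20 of 24 below 0 (median −0.16), among them the chaperone gene Dnajc3 at 19.5, 17.6 and 18.5 CPM in ApoeKO_HFD, against 27.1, 21.8 and 19.5 CPM in ApoeKO_CD. Clock genes had 16 of 19 below 0 (median −0.12), antioxidant genes 19 of 26 (median −0.08), and heat shock genes 8 of 20 (median 0.03). Nfe2l2, the gene of the antioxidant regulator NRF2, had 17.4, 12.7 and 13.2 CPM in ApoeKO_HFD, against 17.4, 18.0 and 17.6 CPM in ApoeKO_CD. Metallothioneins and glucocorticoid-induced genes had 10 of 14 above 0 (median 0.16). Cytosolic ribosomal protein genes had 61 of 77 above 0 (median 0.07). None of these lists held a called gene.

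The interferon, NF-kappaB and MHC class I lists held no called gene. Interferon-stimulated genes were balanced, with 16 of 31 above 0 and a median log2 fold change of 0.04. Iigp1, an interferon-induced GTPase gene, had 12.8, 8.99 and 10.6 CPM in ApoeKO_HFD, against 11.03, 23.9 and 12.7 CPM in ApoeKO_CD, where 1 chow library was high. Bst2 (tetherin) and Xaf1, at low levels, had log2 fold changes of 1.15 and 0.81 without overlap. They were the only 2 of the 31 whose groups lay apart, where 5.04% of all genes lay apart with higher values. NF-kappaB and cytokine genes had 10 of 25 above 0 (median −0.06), and Tlr4, the endotoxin receptor gene, had 7.65, 7.69 and 7.91 CPM in ApoeKO_HFD, against 11.1, 9.07 and 9.23 CPM in ApoeKO_CD (log2 fold change −0.34, adjusted p = 1). Tlr4 was the 1 member of that list apart with lower values, where 3 others lay apart with higher values. Of all genes, 3.99% and 5.04% did so. MHC class I presentation genes had 12 of 15 below 0 (median −0.13). H2-K1, a class I heavy chain, had 7.53, 6.23 and 7.64 CPM in ApoeKO_HFD, against 10.9, 9.503 and 8.12 CPM in ApoeKO_CD, and its partner B2m 8.59, 6.53 and 10.1 CPM in ApoeKO_HFD, against 11.3, 11.7 and 10.2 CPM in ApoeKO_CD. Nlrc5, the class I transactivator gene, had 0.981, 0.858 and 0.852 CPM in ApoeKO_HFD, against 2.03, 1.39 and 1.14 CPM in ApoeKO_CD. These 3 genes had no overlap between groups and unadjusted p-values of 0.0181, 0.0234 and 0.043, and none was called. The median of the class I list was −0.03 without ApoeKO_CD replicate 2. Extracellular matrix genes had 16 of 30 above 0 (median 0.05).

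Markers of cells other than ventricular cardiomyocytes moved between libraries, and in a bulk sample fewer cells of a type and less RNA per cell cannot be told apart. Of 19 tested macrophage markers 18 lay below 0, at a median log2 fold change of −1.14. The summed level of the 22 listed was 12.6, 12.5 and 18.2 CPM in ApoeKO_HFD, against 46.2, 41.4 and 8.83 CPM in ApoeKO_CD. The chow group was thus high in replicates 1 and 2 and below every high fat library in replicate 3. Aif1 was at 0 there, but was too low in all libraries to be tested. Although 6 markers had an unadjusted p under 0.05, all with lower values in ApoeKO_HFD, which 0.78% of all genes had, the groups overlapped at all 19. Lyve1, a receptor of resident macrophages and lymphatic endothelium, had 0.598, 0.373 and 0.651 CPM in ApoeKO_HFD, against 2.64, 1.63 and 0.480 CPM in ApoeKO_CD, and Laptm5, a lysosomal gene of leukocytes, had a log2 fold change of −1.33. Without ApoeKO_CD replicate 3 the median was −1.60, and without ApoeKO_CD replicate 1 it was −0.83.

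Genes of MHC class II presentation followed the macrophage markers library by library. Their sum was 6.15, 6.72 and 8.34 CPM in ApoeKO_HFD, against 29.2, 23.9 and 5.64 CPM in ApoeKO_CD, with 7 of 8 tested members below 0 and a list median of −1.18. H2-Eb1, a class II beta chain, had 0.813, 0.634 and 0.827 CPM in ApoeKO_HFD, against 3.91, 2.86 and 1.01 CPM in ApoeKO_CD (log2 fold change −1.75, SE 0.46, adjusted p = 0.95), and H2-Aa had −1.23. The part of macrophages in the class I and class II values was not tested. Markers of lymphocytes and neutrophils summed to 0.709 to 1.56 CPM in ApoeKO_HFD and 0.658 to 1.89 CPM in ApoeKO_CD, with 4 of 16 abundant enough to be tested.

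Atrial cardiomyocyte markers were lower in 2 of the 3 high fat libraries. Of 14 tested 13 lay below 0, at a median log2 fold change of −0.81, and the groups did not overlap at 6, all lower in ApoeKO_HFD, which 3.99% of all genes were, though no unadjusted p was under 0.05. The summed level was 332, 254 and 222 CPM in ApoeKO_HFD, against 432, 325 and 347 CPM in ApoeKO_CD. Of these sums, 1 member, Myh7b (log2 fold change −0.12), gave 171, 157 and 133 CPM in ApoeKO_HFD and 219, 123 and 159 CPM in ApoeKO_CD. The sums thus say little of the less abundant members. Sln, the sarcolipin gene of atrial calcium handling, had 1.34, 0.149 and 0.225 CPM in ApoeKO_HFD, against 3.74, 3.18 and 1.49 CPM in ApoeKO_CD, and Dkk3 3.06, 0.373 and 0.601 CPM in ApoeKO_HFD, against 7.68, 6.68 and 3.57 CPM in ApoeKO_CD. Both genes were near 0 in ApoeKO_HFD replicates 2 and 3 and present in replicate 1. The part of atrial cells in the hypertrophy list, which shares Nppa, Myl4 and Myl7 with these markers, was not tested.

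Endothelial markers had 16 of 18 above 0, with a median log2 fold change of 0.31 and a sum of 132 to 191 CPM in ApoeKO_HFD and 106 to 146 CPM in ApoeKO_CD. Egfl7, a secreted endothelial factor gene, had 6.55, 5.34 and 5.26 CPM in ApoeKO_HFD, against 4.501, 4.93 and 3.54 CPM in ApoeKO_CD (log2 fold change 0.41, adjusted p = 1). Fibroblast markers had 11 of 14 above 0 (median 0.17), with sums of 28.03 to 40.8 CPM in ApoeKO_HFD and 19.8 to 39.8 CPM in ApoeKO_CD. Pericyte and smooth muscle markers had 10 of 14 above 0 (median 0.09), and the smooth muscle genes Myh11 and Tagln stood out in ApoeKO_CD replicate 1 alone. Myh11 had 3.21, 5.15 and 3.01 CPM in ApoeKO_HFD, against 23.5, 5.77 and 2.33 CPM in ApoeKO_CD. No list in these 4 paragraphs held a called gene, and none of the called genes is a member of a marker list.

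**Figure D5:**
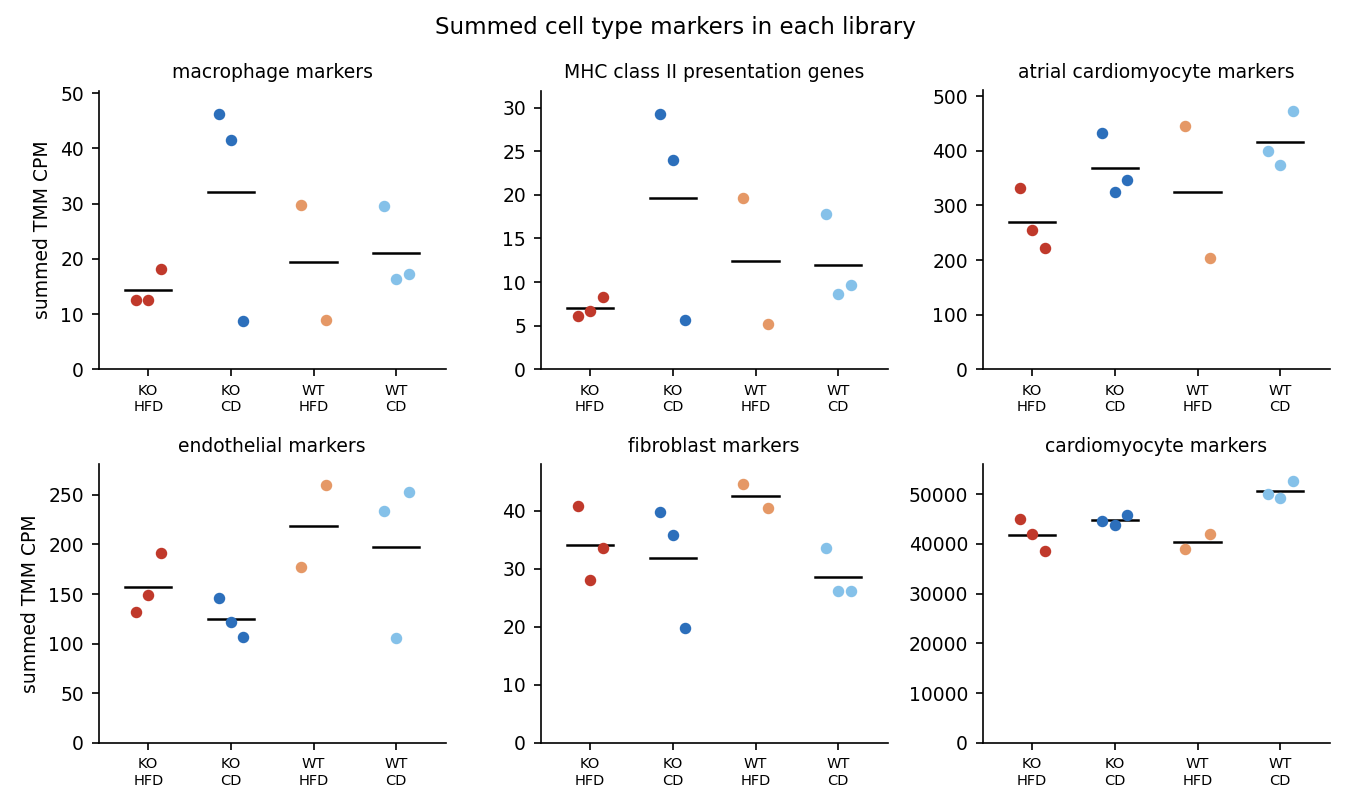
Summed level of marker lists in each library, in TMM-scaled CPM from 0, by labelled group (points are libraries, bars are group means). Macrophage and MHC class II sums are high in ApoeKO_CD replicates 1 and 2 and low in replicate 3, while cardiomyocyte markers differ little between ApoeKO_HFD (38550 to 45080 CPM) and ApoeKO_CD (43740 to 45830 CPM).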

How the data were processed

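RNA of mouse cardiomyocytes was measured in 12 libraries in 4 labelled groups, 3 libraries each. Per the labels' protocols, a Maxwell RSC kit gave the RNA and a SMART-Seq Stranded kit the libraries. The tools named in the submitters' processing notes are HTSeq 0.13.5, STAR 2.7a and Trimmomatic 0.39, with build GRCm38. The deposited files hold whole-number counts per gene, with no normalization.

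Genes were named from GENCODE annotation of GRCm38. With edgeR 4.0.16 in R 4.3.3, the 11 libraries other than WT_HFD replicate 3 were scaled by TMM, filtered by filterByExpr and fitted with 1 mean per group by the robust quasi-likelihood F test, which is two-sided, at 7 residual degrees of freedom (common biological coefficient of variation 0.2). The test was checked on simulated data. Totals of these libraries were 22130323 to 46424614 counts. Counts of replicates differed by far more than sampling noise (chi-square per degree of freedom 24.5 to 190), so none was taken as a duplicate. SE is the standard error of a fitted log2 fold change.

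The members and gene lists were chosen with earlier results of these data known. Lists are described by counts and medians only. The genes named are Apoe, the called genes, the 10 next by p with a mean log2 CPM of at least 1, up to 4 members of each list with the smallest p, and up to 10 called in the interaction, of which some are not reported here. Promoter windows came from RefSeq (GRCm38.p6). Alternatives were RLE factors, DESeq2 1.42.0, voom of limma 3.58.1 with sample weights, other filters, other sets of libraries, the mitochondrial genome left out, the replicate number as a block, and each library left out.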

Additional observations from a re-analysis of the deposited data

Results flagged for a closer look

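At 16 named genes the diet difference under the knockout label differed from that under the wild-type label by the interaction test itself (edgeR's quasi-likelihood test, Benjamini-Hochberg adjusted p under 0.05). The interaction value, (ApoeKO_HFD minus ApoeKO_CD) minus (WT_HFD minus WT_CD) in log2 units, was positive at Igsf23 (6.46), Blvrb (4.41), Hif3a (4.40), Pnmal2 (4.06), Trappc6a (3.42), Ccdc8 (2.92), Zfp30 (2.89), Scd2 (2.64), the pseudogene Tmem181b-ps (2.01), Rfesd (1.73) and Zkscan3 (1.72). It was negative at Apoe (−5.03), Lgals4 (−3.0), Vasp (−1.97), Ercc2 (−1.95) and Bcam (−1.38). At each of the 16 the 2 diet differences had opposite signs. Scd2, Tmem181b-ps, Zkscan3 and Rfesd lie on other chromosomes, and the other 12 on chromosome 7, which held 1325 of the 16932 tested genes.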

How the results depend on the processing

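Against 12 genes called by edgeR in 11 libraries, 20 were called by DESeq2, 23 by voom with sample weights and 26 without a filter on low counts, each time with all 12 among them. With all 12 libraries in the fit, WT_HFD replicate 3 (wrong strand, 1347110 counts) included, 1 was called, Igsf23 (75 at an unadjusted p under 0.05). Without genes of chromosome 7, chosen after seeing the data, 2 were called. With 1 of the 6 libraries left out, 6 to 8 were called. The replicate number is shared between the groups, but same-numbered libraries did not deviate together (correlations of −0.18, −0.02 and −0.12), and the fit with it as a replicate block called 9, without Ercc2, Zkscan3 and Bcam. The interaction called 37 genes, against 92 by DESeq2, 62 by voom, 105 without a filter, 8 with all 12 libraries and 22 to 35 with 1 library left out, and 27 with the replicate block. It cannot be had from the fit of the 2 groups alone. Of 1051 alternative values of 71 named genes, 1 reversed its sign (log2 fold change of Tagln, 0.21 without ApoeKO_CD replicate 1 and down to −1.87 without ApoeKO_CD replicate 3), 47 lost a call and 21 gained one. Of 580 list medians 36 moved by more than 1 SD between replicates. The causes were not tested. Genes under about 1 CPM, and Apoe in the low groups, rest on few counts and could show only large differences.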
